A study of Mus musculus with 16 samples.

Results

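Microtubules of the prefrontal cortex are built from α- and β-tubulin, and the expression of 10 tubulin genes was measured here in mice whose excitatory neurons lack or keep APC, a protein that binds microtubules. The genes were the α-tubulins Tuba1a, Tuba1b, Tuba1c and Tuba4a and the β-tubulins Tubb2a, Tubb2b, Tubb3, Tubb4a, Tubb5 and Tubb6. They were taken by symbol from the 23284 genes of the expression table, and all 10 were found. RNA came from the prefrontal cortex of 16 mice, 2 to 3 months old, with 4 mice for each of 4 genotypes. APC cKO mice were APC fl/fl, and their floxed APC gene was deleted by Cre. β-cat cOE mice were ctnnb1 fl(ex3)/+, so that Cre left a stabilised β-catenin on one allele. APC/β-cat cKO mice carried APC fl/fl together with ctnnb1 fl/fl and lost both proteins. The 3 mutant lines shared the CamKIIα-Cre-93 driver, which acts in forebrain excitatory neurons, so other cells of the dissected tissue kept both genes. Controls were Cre-negative littermates drawn from every line. The line and the floxed alleles of each control are not given in the sources used here, so the loss of APC and a difference between mouse lines cannot be told apart.

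α- and β-tubulin form the heterodimer that polymerises into microtubules, the tracks and struts of axons and dendrites. Neurons express several genes of each kind, whose products differ mainly in their C-terminal tails, where most enzymes that modify tubulin act. Free tubulin also controls its own mRNA: the adaptor TTC5 reads the start of the nascent tubulin chain on the ribosome and brings in SCAPER and the CCR4-NOT deadenylase, which degrade the message. APC binds microtubules near their plus ends as well as β-catenin.

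Values are FPKM, fragments counted per length of transcript and per depth of library. A log2 change is a difference between group means of log2(FPKM + 0.1), and a gene was called at a Benjamini-Hochberg adjusted p under 0.05 from limma over 13978 genes. The depth of the libraries is unknown, and from 5726 to 6649 genes were listed at 0 in each. Apc fell in both APC-deleted lines. Its level was 40.8 to 50.1 FPKM in controls and 38.8 to 49.5 FPKM in β-cat cOEs, against 7.85 to 17.1 FPKM in APC cKOs and 6.80 to 12.2 FPKM in APC/β-cat cKOs. Ctnnb1 was not called in any comparison, and its 16 values lay between 150.9 and 182.0 FPKM. These are mRNA levels, and the protein did differ between lines. On the immunoblots of the paper, β-catenin was above controls both with APC alone deleted and with the stabilised allele. It fell strongly where both genes were deleted. APC cKOs therefore differ from controls in β-catenin protein as well as in APC. Markers of excitatory neurons were present at similar levels in every group, with a summed level of 1098 to 1414 FPKM over 7 genes in the 16 libraries. By Xist and 4 Y-linked genes, control replicate 1 and APC cKO replicate 1 were female and the other 14 libraries male. Control replicate 1 stood apart from the other controls for Tuba1c, while its Apc level of 43.2 FPKM was that of a control, and results that rest on it are given with and without it. In bulk tissue, fewer cells of a type and less RNA per cell cannot be told apart.

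The element read in tubulin autoregulation lies at the start of the coding sequence, and it is shown as the stretch of sequence that sets the family's own mRNA control. The following 12 bases open the coding sequence of 9 members in the GENCODE vM21 transcripts (GRCm38), with the start codon in lower case and codons 2 to 4 in capitals.
Tuba1a: atgCGTGAGTGC
Tuba1b: atgCGTGAGTGC
Tuba1c: atgCGTGAGTGC
Tuba4a: atgCGCGAGTGC
Tubb2a: atgCGCGAGATC
Tubb2b: atgCGAGAGATC
Tubb3: atgAGGGAGATC
Tubb4a: atgCGGGAAATC
Tubb5: atgAGGGAAATC
The 4 α-tubulins end this stretch with TGC and the 5 β-tubulins with ATC. Tuba1a, Tuba1b and Tuba1c have the same 12 bases, so there are 7 distinct starts among the 9.

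Tuba1a, Tuba1b and Tuba1c lie close together on chromosome 15, and their promoters are shown because Tuba1c differed between genotypes while its neighbours were not called. In GRCm38, Tuba1b spans chr15:98931425-98934565 and Tuba1a chr15:98949837-98953703, both on the minus strand, and Tuba1c spans chr15:99029891-99038110 on the plus strand. Each of these genes has 4 exons. The sequences below are the 250 bases before each RefSeq start (GRCm38.p6), read 5′ to 3′ on the strand of the gene. For Tuba1a and Tuba1b the RefSeq start lies inside the GENCODE span, which reaches 98953703 and 98934565. Part of each of these 2 stretches therefore lies within the gene as GENCODE gives it, unlike that of Tuba1c. Capitals mark matches on either strand to the CCAAT box, CCAAT, and the GC box, GGGCGG.
Tuba1a, chr15:98953502-98953751, minus strand: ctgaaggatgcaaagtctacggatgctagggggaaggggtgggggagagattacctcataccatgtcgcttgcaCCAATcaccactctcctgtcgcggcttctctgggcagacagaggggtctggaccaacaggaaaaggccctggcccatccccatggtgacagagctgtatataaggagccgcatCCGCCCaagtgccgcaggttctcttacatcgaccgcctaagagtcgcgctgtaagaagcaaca
Tuba1b, chr15:98934391-98934640, minus strand: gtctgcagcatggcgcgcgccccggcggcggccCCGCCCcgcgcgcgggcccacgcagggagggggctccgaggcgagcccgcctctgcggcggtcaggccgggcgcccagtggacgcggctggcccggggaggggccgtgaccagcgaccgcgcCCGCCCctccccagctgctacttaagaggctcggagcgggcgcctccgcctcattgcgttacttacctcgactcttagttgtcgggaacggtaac
Tuba1c, chr15:99029641-99029890, plus strand: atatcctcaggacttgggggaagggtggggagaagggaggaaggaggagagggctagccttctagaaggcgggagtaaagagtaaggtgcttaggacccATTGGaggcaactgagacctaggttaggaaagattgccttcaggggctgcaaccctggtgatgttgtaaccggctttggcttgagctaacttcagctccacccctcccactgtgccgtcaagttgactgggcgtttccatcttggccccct
Counted back from -1, the base just before the start, Tuba1a has 1 CCAAT box at -176 and 1 GC box at -63. Tuba1b has 2 GC boxes, at -217 and -95, and Tuba1c has 1 CCAAT box at -151. None of these stretches holds the TATA box TATAAA or a TCF/LEF motif, taken as CTTTGAA or CTTTGAT. The G and C content was 56.8% for Tuba1a, 75.6% for Tuba1b and 55.6% for Tuba1c, and the number of CG pairs was 11, 35 and 4. Among 32851 RefSeq promoters of the same length, 33.9% hold a CCAAT box, 32.7% a GC box, 12.4% a TATA box and 7.48% a TCF/LEF motif. A match is a description of the letters and shows no binding. The table held 8 of the 10 members, and in those the TATA box matched only in Tubb2a and the TCF/LEF motif in none.

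In control cortex, 8 members were abundant and 2 were scarce. Tuba1a, the main α-tubulin of differentiating neurons, was highest at 509 ± 12.5 FPKM (SD, n = 4). Tubb2a followed at 372 ± 32.4 FPKM and Tuba4a at 370 ± 15.2 FPKM, and the ranges of these 2 genes overlapped. Tubb4a reached 314 ± 13.3 FPKM, apart from its neighbours in the order. Tubb3, the neuronal class III β-tubulin, was at 253 ± 8.27 FPKM and overlapped with Tubb5 at 237 ± 13.2 FPKM. Tuba1b was at 206 ± 11.7 FPKM and Tubb2b at 68.7 ± 7.61 FPKM. Tuba1c, at 2.34 ± 1.30 FPKM, and Tubb6, at 1.93 ± 0.869 FPKM, were the lowest and overlapped. The 8 abundant genes had the same order of means in all 4 genotypes, and Tuba1c lay above Tubb6 in controls and β-cat cOEs and below it in both APC-deleted lines.

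**Figure D1:**
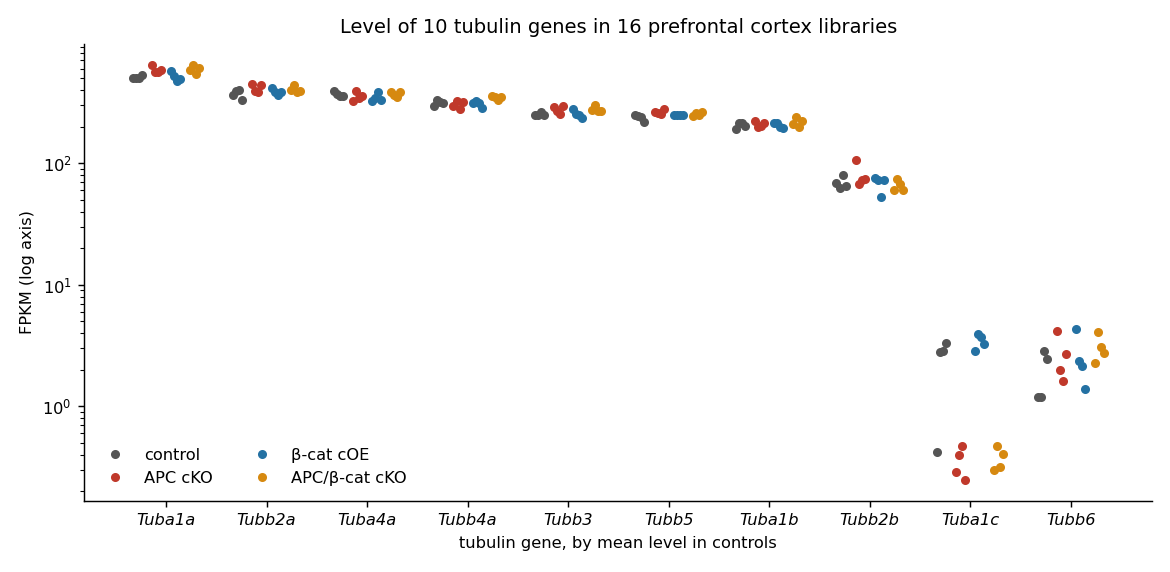
FPKM of each of the 10 tubulin genes in the 16 libraries, on a log axis, with genes ordered by their mean in controls and 1 point per library coloured by genotype. The libraries of 9 genes lie in a single cloud, while those of Tuba1c split into 9 libraries between 0.247 and 0.470 FPKM and 7 between 2.80 and 3.92 FPKM.

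To ask whether tubulin expression depends on APC or on β-catenin, each mutant line was compared with controls and with the other lines. In APC cKO against control, 0 of 10 members were called, beside 0.0429% of all genes tested, and 5 members had an unadjusted p under 0.05, beside 10% of all genes. In β-cat cOE against control, 0 members were called and 0 had an unadjusted p under 0.05, beside 0.0143% and 5.07% of all genes. In APC/β-cat cKO against control, 0 members were called and 4 had an unadjusted p under 0.05, beside 0.207% and 14.2%. Tuba1c was the 1 member called in APC cKO against β-cat cOE, where 2 members had an unadjusted p under 0.05, beside 0.0429% and 7.57%. No member was called in APC cKO against APC/β-cat cKO, and 1 had an unadjusted p under 0.05, beside 0.215% and 10.3%. In β-cat cOE against APC/β-cat cKO, Tuba1c was the 1 member called and 4 had an unadjusted p under 0.05, beside 0.229% and 11.9%.

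The lines with APC deleted, APC cKO and APC/β-cat cKO, were then set against the groups with APC intact, β-cat cOE and control. Tuba1c was the 1 member called, beside 0.386% of all genes, and 5 members had an unadjusted p under 0.05, beside 13.3%. The test for any difference among the 4 genotypes also called 1 member, Tuba1c, beside 0.250%, and 4 members had an unadjusted p under 0.05, beside 12%. The median log2 change over the 10 members in the APC-deleted comparison was 0.08, against 0.00 over all genes. These comparisons share libraries, so their values are not independent of each other.

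**Figure D2:**
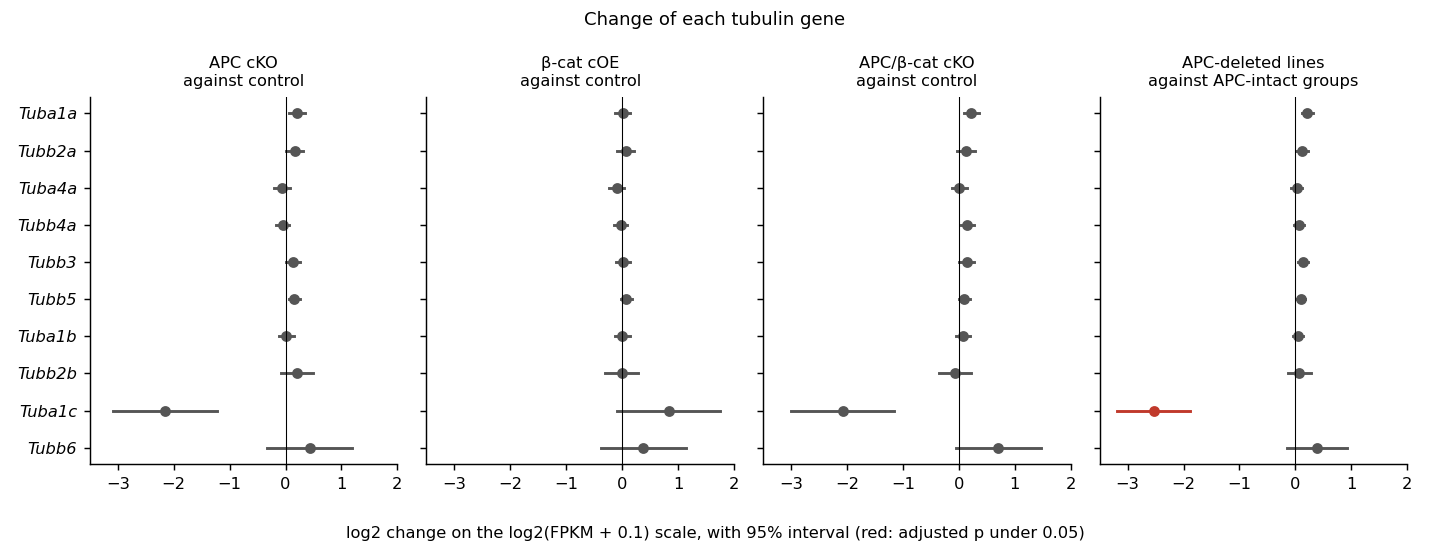
Log2 change of each tubulin gene with its 95% interval in 4 comparisons, on the log2(FPKM + 0.1) scale, with calls at an adjusted p under 0.05 in red. Tuba1c, at -2.53, is the only call shown, and the other 9 genes lie between 0.02 and 0.38 in the APC-deleted comparison.

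Tuba1c, an α-tubulin that is scarce in adult cortex, was lower in both APC-deleted lines than in β-cat cOEs. Its level was 0.286, 0.395, 0.470 and 0.247 FPKM in APC cKOs and 0.300, 0.468, 0.317 and 0.403 FPKM in APC/β-cat cKOs. In β-cat cOEs it was 2.84, 3.92, 3.70 and 3.26 FPKM. In controls it was 0.420, 2.80, 2.83 and 3.30 FPKM. Replicate 1 of the controls lay within the range of the APC-deleted lines, and the other 7 APC-intact libraries all lay above the 8 APC-deleted ones, with no library between 0.470 and 2.80 FPKM.

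By the limma fit, Tuba1c fell by 2.99 on the log2 scale in APC cKOs against β-cat cOEs (SE 0.44, adjusted p = 0.0149). This call was lost without APC cKO replicate 1 or 4 or β-cat cOE replicate 2, 3 or 4, with an adjusted p of 0.0533 to 0.0934. β-cat cOEs were higher than APC/β-cat cKOs by 2.91 (SE 0.44, adjusted p = 0.0092). For the APC-deleted lines against the APC-intact groups the log2 change was -2.53 (SE 0.31, adjusted p = 0.0011), and the test over the 4 genotypes gave an adjusted p of 0.0057. The APC-deleted lines differed from each other by -0.08, with a 95% interval from -1.01 to 0.84, and this value changed sign without APC cKO replicate 4 (0.03) or APC/β-cat cKO replicate 2 (0.01).

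Against controls, the call rested on control replicate 1. With it, the log2 change of Tuba1c was -2.16 in APC cKOs (SE 0.44, adjusted p = 0.152) and -2.08 in the APC/β-cat cKO line (SE 0.44, adjusted p = 0.083), neither of which was called. Without it, the changes were -2.80 (SE 0.20, adjusted p = 8.58e-06) and -2.72 (SE 0.20, adjusted p = 6.48e-06), both called, beside 0.307% and 0.400% of all genes in those fits. β-cat cOEs differed from controls by 0.83 (95% interval -0.09 to 1.76) with that library and by 0.19 (SE 0.20) without it. Of the other α-tubulins, control replicate 1 had 502 FPKM of Tuba1a against 504 to 528 FPKM in the other controls, 190 FPKM of Tuba1b against 204 to 215 FPKM and 390 FPKM of Tuba4a against 357 to 371 FPKM. The summed level of 6 markers of striatal projection neurons, such as Drd1 and Drd2, was 255 FPKM in control replicate 1 and 61.7 to 111 FPKM in the other controls. It was 76.2 to 208 FPKM in β-cat cOEs, 96.1 to 382 FPKM in APC cKOs and 65.1 to 258 FPKM in the APC/β-cat cKO line. The sum of 4 choroid plexus markers was 5.40 FPKM in control replicate 1, 1.97 to 3.13 FPKM in the other controls, 1.58 to 4.76 FPKM in β-cat cOEs, 1.81 to 8.26 FPKM in APC cKOs and 1.43 to 5.53 FPKM in the APC/β-cat cKO line. All of these markers were above 0 in every library, and their part in the level of Tuba1c was not tested. Control replicate 1 was female, and the other female library, APC cKO replicate 1, had 0.286 FPKM of Tuba1c, within the range of the 3 male APC cKOs. With sex as a covariate, Tuba1c was called against control in the APC cKO line (adjusted p = 0.0156) and in the APC/β-cat cKO line (adjusted p = 0.0042). The sex term rests on these 2 female libraries, 1 of them control replicate 1, so this fit cannot separate sex from that library.

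**Figure D3:**
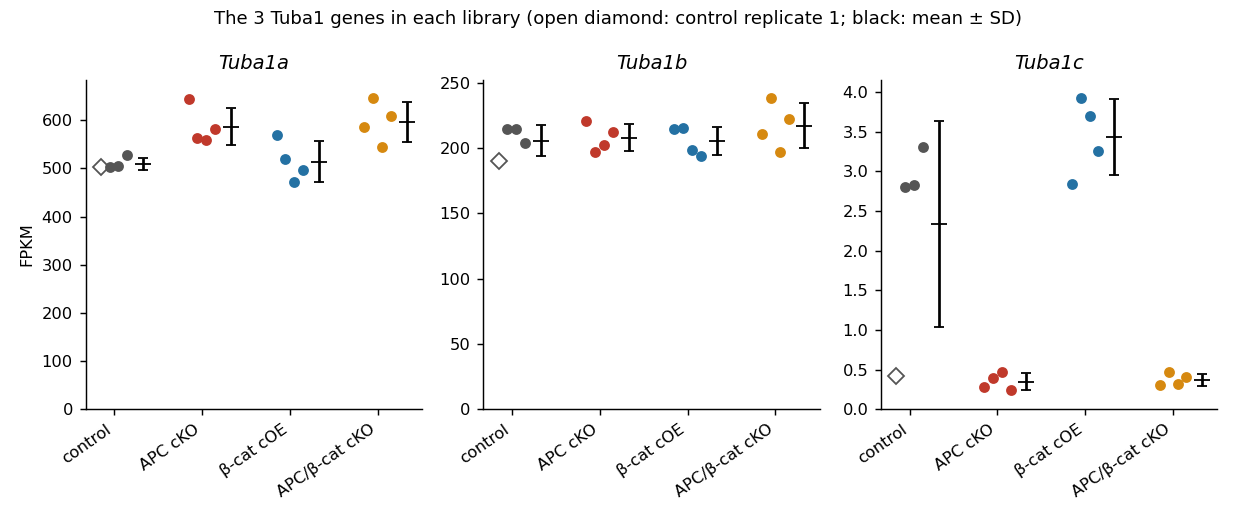
FPKM of Tuba1a, Tuba1b and Tuba1c in each library by genotype, on linear axes that start at 0, with the mean and SD of 4 libraries in black and control replicate 1 as an open diamond. Tuba1c is low in the 8 APC-deleted libraries and in control replicate 1, while Tuba1b overlaps in all 4 genotypes.

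Tuba1a was slightly higher in both APC-deleted lines, but the difference did not pass the test. Its level was 502, 504, 504 and 528 FPKM in controls and 570, 519, 471 and 497 FPKM in β-cat cOEs. It was 643, 563, 559 and 581 FPKM in APC cKOs and 585, 645, 545 and 609 FPKM in APC/β-cat cKOs. Every APC-deleted library lay above every control, and β-cat cOE replicate 1 lay within the APC-deleted range. The log2 change was 0.20 in APC cKOs (SE 0.07, adjusted p = 0.329) and 0.22 in the APC/β-cat cKO line (SE 0.07, adjusted p = 0.219) against control. Under quantile scaling the latter was 0.12 (adjusted p = 0.396). For the APC-deleted lines together it was 0.21 (SE 0.05, adjusted p = 0.066), and without β-cat cOE replicate 1 it was 0.23 with an adjusted p of 0.0428, past the threshold.

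Tuba1b, a widely expressed α-tubulin, had a mean of 206 ± 11.7 FPKM in controls and 206 ± 10.7 FPKM with stabilised β-catenin. The APC-deleted lines were at 208 ± 10.5 FPKM (APC cKO) and 217 ± 17.3 FPKM (APC/β-cat cKO). The ranges of all 4 genotypes overlapped, and the log2 change of the APC-deleted lines was 0.05, with a 95% interval from -0.05 to 0.14. Tuba4a has a product that ends without the C-terminal tyrosine encoded by most other α-tubulins. It was at 370 ± 15.2 FPKM in controls and between 322 and 393 FPKM in the 12 mutant libraries. Its log2 change in the APC-deleted lines was 0.02, with a 95% interval from -0.07 to 0.12.

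The values of the Tuba1 genes are uncertain where reads could come from a near-identical copy. The coding sequences of Tuba1a and Tuba1b are 98.3% identical, those of Tuba1b and Tuba1c 97.9% and those of Tuba1a and Tuba1c 97.1%. Of the windows of 100 bases in the Tuba1c transcript, 53.4% occur in another gene of the annotation, as do 65.1% in Tuba1a and 69.5% in Tuba1b. All of the shared Tuba1c windows also occur in another of the 10 members: of its 1883 windows, 799 occur in Tuba1b and 594 in Tuba1a, both of which are far more abundant. The other 46.6% of the Tuba1c windows occur in no other gene. Tubb2a and Tubb2b are 96.5% identical, and 36.9% and 27.8% of their windows are shared. Tuba4a, Tubb3, Tubb4a, Tubb5 and Tubb6 had 0 shared windows. How reads that fit several genes were counted is not given in the sources used here.

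Tubb2a, one of the most abundant neuronal β-tubulins, had a mean of 372 ± 32.4 FPKM in controls and 388 ± 21.7 FPKM with stabilised β-catenin. The APC-deleted lines were at 415 ± 34.7 FPKM (APC cKO) and 406 ± 24.4 FPKM (APC/β-cat cKO). All ranges overlapped, and the largest difference from control was 0.16 in APC cKOs (SE 0.07, adjusted p = 0.472). Tubb2b, a β-tubulin needed for neuronal migration, was at 105, 67.9, 72.2 and 74.1 FPKM in APC cKOs, against 68.2, 61.9, 79.5 and 65.4 FPKM in controls. APC cKO replicate 1 was the highest of all 16 libraries, and the other 3 APC cKOs overlapped with controls. The log2 change of Tubb2b in APC cKOs was 0.20, with a 95% interval from -0.09 to 0.49.

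Tubb6, a β-tubulin that is scarce in adult neurons, ranged from 1.18 to 4.30 FPKM. Its highest levels were 4.18 FPKM in APC cKO replicate 1, 4.30 FPKM in β-cat cOE replicate 1 and 4.09 FPKM in APC/β-cat cKO replicate 2. Those 3 libraries also had the highest summed level of 7 markers of immature neurons, such as doublecortin (Dcx), at 65.8, 38 and 36.1 FPKM. The next libraries did not match: APC cKO replicate 3 had a sum of 34.2 FPKM but 1.61 FPKM of Tubb6. APC/β-cat cKO replicate 3 had 3.07 FPKM of Tubb6 but a sum of 17.8 FPKM. Controls ranged from 13 to 25.1 FPKM in this sum, the APC cKO line from 15.9 to 65.8 FPKM, the β-cat cOE line from 15.9 to 38 FPKM and the APC/β-cat cKO line from 12.6 to 36.1 FPKM, with all 7 markers above 0 in every library. The part of such cells in the levels of Tubb6 and Tubb2b was not tested. Between genotypes the largest difference of Tubb6 was 0.70 in APC/β-cat cKOs against control (95% interval -0.05 to 1.46, adjusted p = 0.382).

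Tubb3 and Tubb5 were slightly higher in the APC-deleted lines and were not called. Tubb3 was at 249, 249, 265 and 247 FPKM in controls, 291, 267, 256 and 293 FPKM in APC cKOs, and 276, 300.4, 267 and 271 FPKM in APC/β-cat cKOs. APC/β-cat cKOs did not overlap with controls, and APC cKO replicate 3 lay below the highest control. The log2 change of APC/β-cat cKOs against control was 0.14. It was 0.06 to 0.16 over 26 alternatives, of which 0 called it, and 0.10 to 0.16 with a library left out. In β-cat cOEs Tubb3 was at 281, 253, 249 and 236 FPKM, overlapping with every other group. The log2 change of the APC-deleted lines was 0.13 (SE 0.04, adjusted p = 0.231).

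Tubb5, a β-tubulin found in most cells, was at 249, 243, 238 and 218 FPKM in controls and 265, 259, 252 and 280 FPKM in APC cKOs. These groups did not overlap, with a log2 change of 0.16 (SE 0.05, adjusted p = 0.310). Its level was 254 ± 8.98 FPKM in APC/β-cat cKOs and 248 ± 1.58 FPKM in β-cat cOEs, and for the APC-deleted lines together the change was 0.09 (SE 0.03, adjusted p = 0.269).

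Tubb4a, a β-tubulin of neurons and of myelinating oligodendrocytes, had its highest levels in APC/β-cat cKOs. It was at 359, 349, 333 and 351 FPKM there, against 297, 329, 317 and 314 FPKM in controls, 295, 324, 279 and 321 FPKM in APC cKOs and 310, 322, 315 and 287 FPKM in β-cat cOEs. Every APC/β-cat cKO library lay above every other library. The difference did not pass the test: APC cKOs were lower than APC/β-cat cKOs by a log2 change of -0.19 (SE 0.05, adjusted p = 0.209), and APC/β-cat cKOs were higher than controls by 0.15 (SE 0.05, adjusted p = 0.281). Under quantile scaling these were -0.11 (adjusted p = 0.595) and 0.06 (adjusted p = 0.682).

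Oligodendrocyte markers, like Tubb4a, had higher levels in APC/β-cat cKOs than in APC cKOs, with no call. The summed level of 9 markers, such as Mbp of myelin, was 609.7 to 731 FPKM in APC/β-cat cKOs and 417 to 503 FPKM in APC cKOs, which did not overlap. It was 485 to 673 FPKM in controls and 468 to 632 FPKM in β-cat cOEs. In APC cKOs against APC/β-cat cKOs, 0 of the 9 markers were called and 8 were lower at an unadjusted p under 0.05, with all 9 above 0 in every library. Of all genes, 0.215% were called in that comparison and 10.3% had an unadjusted p under 0.05 in either direction. The part of these cells in the level of Tubb4a was not tested.

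Summed over the members studied here, α- and β-tubulin transcripts kept close to the same ratio in the 4 genotypes. These sums are not the whole tubulin pool. The β-tubulin Tubb4b was left out of them, and its mean in controls was 290 FPKM, above that of Tubb3 at 253 FPKM. The summed α-tubulin level was 1087 ± 6.09 FPKM in the control group, 1069 ± 35.8 FPKM in the β-cat cOE group, 1149 ± 34.4 FPKM in the APC cKO group and 1186 ± 67.1 FPKM in the APC/β-cat cKO group. The summed β-tubulin level was 1246 ± 55.6, 1271 ± 50.3, 1343 ± 82.4 and 1354 ± 50.7 FPKM in the same order. The ratio of the β sum to the α sum was 1.15 ± 0.0542, 1.19 ± 0.0186, 1.17 ± 0.0459 and 1.14 ± 0.0370 in that order, with overlapping ranges. Tuba1a made up 46.9% ± 1.01 of the α sum in the control group, 48.1% ± 2.74 in the β-cat cOE group, 51.0% ± 2.28 in the APC cKO group and 50.2% ± 0.943 in the APC/β-cat cKO group. Tuba1c made up 0.215% ± 0.119 in controls and 0.322% ± 0.0474 in β-cat cOEs, against 0.0306% ± 0.0097 in the APC cKO group and 0.0312% ± 0.0052 in the APC/β-cat cKO group.

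Other genes of the microtubule pathway were read from the same fit in 9 lists with 155 genes, of which 146 could be tested. In the APC-deleted comparison 0 of the 146 were called by limma and 23 had an unadjusted p under 0.05, 11 higher and 12 lower, which is 15.8% beside 13.3% of all genes. Against control, 0 were called in each of the 3 lines, and 11, 24 and 6 had an unadjusted p under 0.05 in the APC cKO, APC/β-cat cKO and β-cat cOE lines, or 7.53%, 16.4% and 4.11% beside 10%, 14.2% and 5.07% of all genes. In APC cKOs against β-cat cOEs 0 were called and 7 passed unadjusted (4.79% beside 7.57%), between the β-cat cOE and the APC/β-cat cKO line 0 were called and 23 passed unadjusted (15.8% beside 11.9%), and over the 4 genotypes 0 were called and 19 passed unadjusted (13% beside 12%). In APC cKOs against APC/β-cat cKOs 1 of the 146 was called, beside 0.215% of all genes, and 19 passed unadjusted (13% beside 10.3%). The median log2 change over the 146 genes lay between -0.02 and 0.00 in each comparison with a direction.

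The 1 list gene called was Stmn4, a stathmin, which binds free tubulin dimers and favours disassembly. Stmn4 was at 293, 273, 281 and 325 FPKM in APC/β-cat cKOs and 230, 228, 213 and 236 FPKM in APC cKOs, and these groups did not overlap. It was at 215, 258, 229 and 247 FPKM in controls and 245, 257, 222 and 248 FPKM in β-cat cOEs. APC cKOs were lower than APC/β-cat cKOs by a log2 change of -0.37 (SE 0.07, adjusted p = 0.0392), a call kept under 9 of 26 alternatives. Of the other 8 genes tested in its list of destabilising and severing proteins, 0 were called and 3 had an unadjusted p under 0.05 in that comparison, beside 0.215% and 10.3% of all genes.

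The most abundant gene of each list was not called in any comparison. Among the other tubulins, Tubb4b was at 290 ± 21.3 FPKM in controls and at means of 302, 311 and 285 FPKM in the APC cKO, APC/β-cat cKO and β-cat cOE lines. The prefoldin subunit Pfdn5, which delivers nascent tubulin to the chaperonin, was at 316 ± 20.9 FPKM in controls and 382 ± 40.6 FPKM in APC/β-cat cKOs, with no overlap, a log2 change of 0.27 and an adjusted p of 0.210. The tubulin deacetylase Sirt2, abundant in oligodendrocytes, was at 63.4 ± 3.55 FPKM in APC/β-cat cKOs and 55.0 ± 1.57 FPKM in APC cKOs, with an adjusted p of 0.186. Stmn1 was at 667 ± 18.7 FPKM in controls and 835 ± 76.2 FPKM in APC/β-cat cKOs, with no overlap, a log2 change of 0.32 and an adjusted p of 0.274. The motor Kif5a, the doublecortin-like kinase Dclk1, the end-binding protein Mapre2, the γ-tubulin complex subunit Mzt1 and the deadenylase Cnot7 had control means of 522, 204, 96.9, 65.1 and 38 FPKM. Of the autoregulation genes, Ttc5 was at 24.8 ± 1.43 FPKM in controls and 26.8 ± 1.52, 23.9 ± 1.22 and 26.3 ± 1.98 FPKM in the APC cKO, APC/β-cat cKO and β-cat cOE lines.

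**Figure D4:**
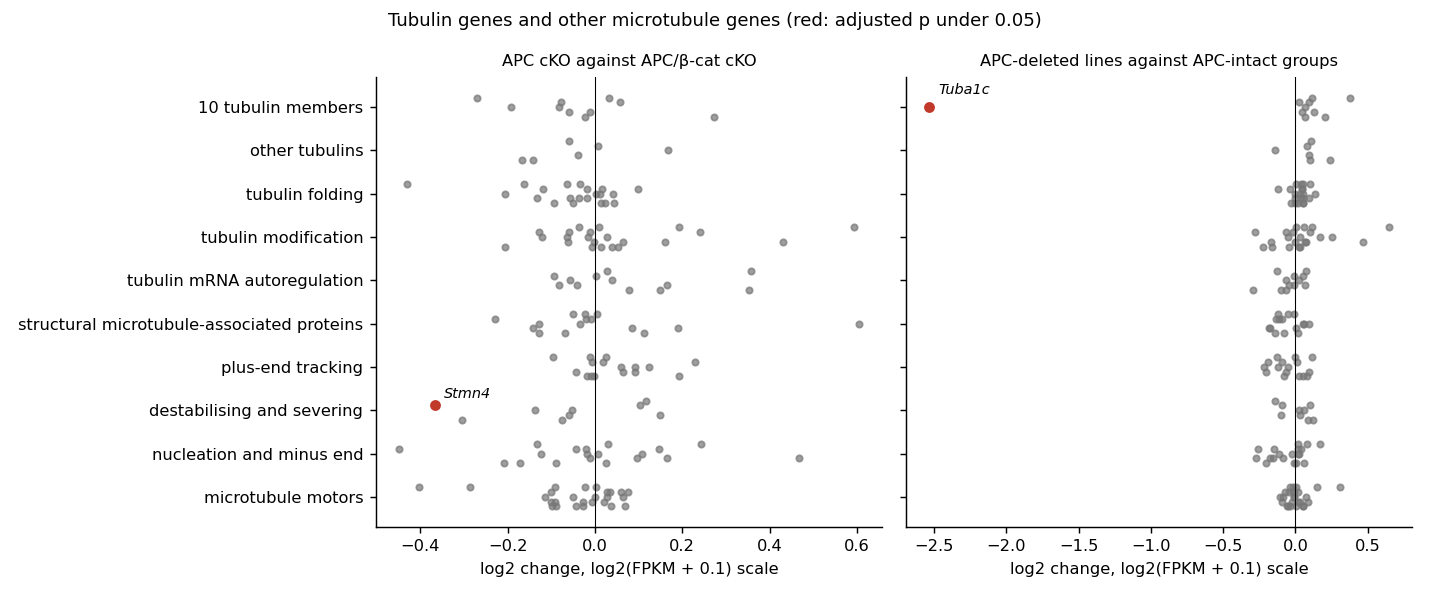
Log2 change of the 10 tubulin genes and of the tested genes in 9 microtubule lists, with APC cKO against APC/β-cat cKO on the left and APC-deleted lines against APC-intact groups on the right. Each point is a gene, calls at an adjusted p under 0.05 are red, and the calls are Stmn4 at -0.37 on the left and Tuba1c at -2.53 on the right.

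The genes nearest to Tuba1c in pattern were found by the Pearson correlation of log2 values over the 16 libraries, given as a description since all genes share those libraries. They were Cwc22, a splicing factor (r = 0.967), Parvg, a parvin of cell adhesion sites (r = 0.954), Fam45a (r = 0.916), Pcdhb9, a clustered protocadherin (r = 0.907), and Il1f9, a cytokine of the interleukin-1 family (r = 0.907). Parvg lies on chromosome 15 like Tuba1c, at 84324719-84342978. Pcdhb9 lies on chromosome 18, which also holds Apc. Cwc22 and Il1f9 lie on chromosome 2 and Fam45a on chromosome 19. The part of these positions in the shared pattern was not tested. Cwc22 was at 6.20, 75.3, 80.1 and 119 FPKM in controls and 158, 58.5, 158 and 73.7 FPKM in β-cat cOEs. It was at 5.51 to 8.30 FPKM in the 8 APC-deleted libraries. As with Tuba1c, control replicate 1 lay within the APC-deleted range and the other 7 APC-intact libraries lay above it.

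The other 4 genes had the same split, which their choice by correlation with Tuba1c favours. In control replicate 1, Parvg was at 2.41 FPKM, Fam45a at 16.4 FPKM, Pcdhb9 at 3.98 FPKM and Il1f9 at 0.937 FPKM, each within the range of the APC-deleted libraries. The lowest of the other 7 APC-intact libraries was 3.66 FPKM for Parvg, 20.3 FPKM for Fam45a, 5.71 FPKM for Pcdhb9 and 2.67 FPKM for Il1f9. The highest APC-deleted library was at 2.79, 18.2, 4.57 and 1.24 FPKM in the same order. Among the other 9 members, the correlation with Tuba1c ran from -0.69 for Tuba1a to -0.09 for Tuba1b.

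**Figure D5:**
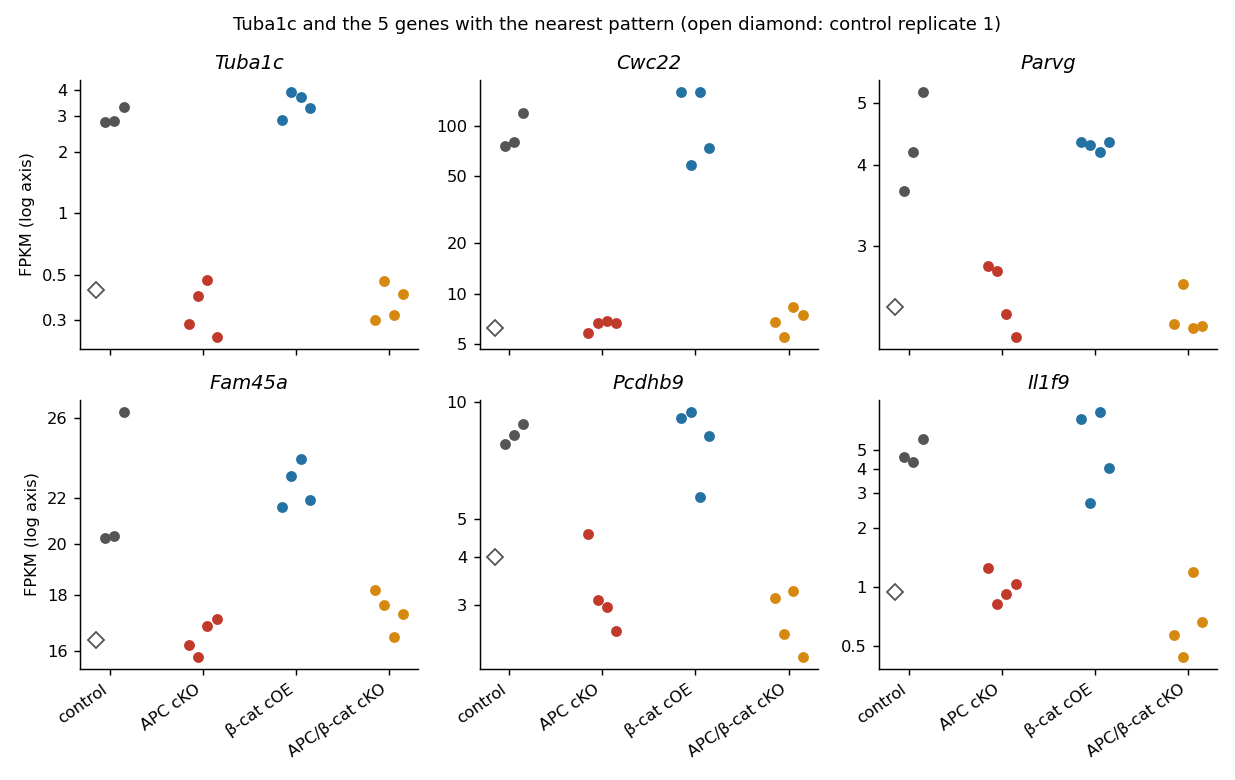
FPKM of Tuba1c and of the 5 genes nearest to it in pattern, by genotype and on log axes with a range of their own, with 1 point per library and control replicate 1 as an open diamond. In all 6 genes control replicate 1 lies with the APC-deleted libraries and apart from the other 3 controls, a split favoured by the choice of genes by correlation with Tuba1c.

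Genes beside Tuba1c on chromosome 15 were read in the same fit. Within 0.5 Mb, 30 genes were tested, among them Tuba1a and Tuba1b, and 0 were called by limma in each comparison that called Tuba1c. The number with an unadjusted p under 0.05 was 2 in APC cKO against β-cat cOE, 4 in β-cat cOE against APC/β-cat cKO, 3 in the APC-deleted comparison and 3 over the 4 genotypes, beside 7.57%, 11.9%, 13.3% and 12% of all genes.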

How the data were processed

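RNA from prefrontal cortex of 16 mice was prepared with a TruSeq stranded mRNA kit and sequenced in pairs. The authors mapped reads to mm10 with TopHat2 2.0.10 and made expression values with Cufflinks2 and Cuffdiff 2.1.1; the annotation is not given in the sources used here. What the authors deposited are log2 values. Their sums fit log2(FPKM + 1), and they were returned to FPKM on that reading. FPKM had been assumed, so the planned test was kept. All 16 columns were used.

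limma 3.58.1 (R 4.3.3) fitted log2(FPKM + 0.1) for the 13978 genes whose mean reached 0.5 FPKM, with 1 spread for the 4 genotypes (12 residual degrees of freedom) and Benjamini-Hochberg adjustment. The fit was tested on simulated data. Intervals are 95% from the moderated fit. Python 3.11.15, pandas 2.3.3 and matplotlib 3.10.9 made the tables and plots. Depth is unknown.

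The 10 members and all lists were chosen with earlier results of these data known. The genes named besides the members are Apc, Ctnnb1 and Ttc5, list genes called in any comparison, the most abundant gene of each list, and the 5 genes nearest to each called member. Tubb4a, Tubb6 and the marker lists named beside members were described after their values were seen. Of the oligodendrocyte markers, 1 is not reported here and stayed out of its list's sums. Alternatives changed the pseudocount (1 or 0.01 FPKM), the filter (none or 2 FPKM), the scaling, the trend, the samples, the threshold (0.01), and added sex or the replicate number. Sequences came from RefSeq (GRCm38.p6) and GENCODE vM21; protein sequences were not used here.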

Additional observations from a re-analysis of the deposited data

Results flagged for a closer look

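For 4 combinations of gene and genotype, 1 of the 4 mice had a log2 value well away from the rest, out of 44 combinations examined for the 10 tubulin genes and Stmn4; chance gives about 1 in 20. The gap to the nearest library, as a share of the whole range of the group, was 0.915 for Tuba1c in controls, where replicate 1 was low at 0.420 FPKM. It was 0.914 for Tuba1a in controls, where replicate 4 was high at 528 FPKM, and 0.892 for Tubb3 in controls, where replicate 3 was high at 265 FPKM. It was 0.920 for Tubb2b in β-cat cOEs, where replicate 3 was low at 53.2 FPKM and the other 3 lay between 73.1 and 75.2 FPKM.

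Effects against the shared controls differed between mutant lines for 2 genes. The change of Tuba1c in APC cKOs differed from that in β-cat cOEs by -2.99 on the log2 scale, with an adjusted p of 0.0149 from limma, and was lower in 4 of 4 libraries. The change in β-cat cOEs differed from that in APC/β-cat cKOs by 2.91, with an adjusted p of 0.0092 from limma, and was higher in 4 of 4 libraries. For Stmn4 the change in APC cKOs differed from that in APC/β-cat cKOs by -0.37, with an adjusted p of 0.0392 from limma.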

How the results depend on the processing

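The number of tubulin genes called was within 1.5 times its main value in 198 of 214 recomputed counts. A count of 0 that stayed 0 was included in these, and every main count was 0 or 1. The share therefore says little about how stable a call was. Control replicate 1 decided the comparisons with control: leaving out each library in turn gave 0 to 1 call in APC cKO and in APC/β-cat cKO against control, with the call, Tuba1c, made only without that library, and sex as a covariate gave 1 in each. In APC cKO against β-cat cOE the count was 0 to 1 with a library left out, 0 under the replicate block and 0 at an adjusted p under 0.01. With a mean of at least 2 FPKM, Tuba1c was not tested, and the count was 0 in all 4 comparisons that had called it. In the APC-deleted comparison the count was 1 to 2 with a library left out, since Tuba1a was called without β-cat cOE replicate 1. Tuba1c kept its direction and its call in the 24 alternatives of that comparison that tested it, with a log2 change of -2.85 to -1.44, the weakest with a pseudocount of 1 FPKM, and an adjusted p of at most 0.0063. Its small difference between the APC-deleted lines turned sign, to 0.27 with sex as a covariate, 0.0901 under the replicate block and a range of -0.21 to 0.0319 with a library left out. The cause of these changes was not tested.

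The number in the sample titles was used as a replicate block. Over 21 pairs of libraries with the same number, r of their deviations from the group means was -0.218 to 0.322, with a median of -0.069. Over 75 other pairs it was -0.275 to 0.222, with a median of 0.005. The medians give no sign of a pairing by number, but these values cannot show whether the mice were handled in sets. The deposited columns come in sets that hold a library of every genotype, and APC cKO replicate 4 has partners in that order. A block by column order was not fitted. The block by title number fits APC cKO replicate 4 exactly, since its number has no partner, so that library does not inform the result. Under the block by title number, Tuba1c in APC cKO against β-cat cOE was -2.82 with an adjusted p of 0.101 from limma.

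Depth is unknown, so the precision of Tuba1c and Tubb6, near or under 4 FPKM, cannot be given from counts.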
